A study of Rattus norvegicus with 8 samples.

Results

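The loci described here are listed intervals of the rat genome (assembly rn4) whose RefSeq accessions are all of the non-coding kind (NR) with none of the messenger RNA kind (NM), which span more than 300 bp and have a usable RNA estimate in both conditions. Of 30937 listed loci, 920 carried only non-coding accessions, 664 of these were over 300 bp, and 663 had a usable estimate, or 2.14% of the table. Primary vascular smooth muscle cells cultured from thoracic aortas of Sprague-Dawley rats were compared without treatment (control) and with 0.1 uM angiotensin II (AngII) for 3 h, a peptide hormone acting on vessels. RNA, H3K4me3 and H3K36me3 were each sequenced in 1 library per condition, so no difference given below has a replicate check and none was tested. Of the 8 libraries in the series, 6 were analysed, and the 2 input libraries were not analysed here. The labels mention serum starvation overnight for AngII cells and not for control cells, so starvation and AngII cannot be told apart.

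The set was drawn up as annotated long non-coding RNA loci, and the names went against that description. Of its 676 distinct accessions, 168 matched a rat RefSeq symbol, which gave 169 loci a name. Among those 169 loci, 140 were rows of microRNA genes, 1 of a small nuclear RNA (LOC252890), 16 of long non-coding RNAs, 7 pseudogenes, 3 pieces of the protein-coding gene Ngrn, and 2 RNA components of enzymes, Rpph1 and Terc. The other 494 loci had no matched symbol and are given by accession. Symbols were matched against rat only, and the species of the unmatched accessions was not examined. A locus without a symbol is thus not shown to be an unannotated gene. The set is therefore called loci with non-coding accessions.

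Long non-coding RNAs are transcripts without a long reading frame. Some are hosts from whose introns or exons small RNAs are cut, some are structural parts of enzymes, and others act near the site of their own transcription. A microRNA gene is read as part of a longer primary transcript, from which a hairpin and then a short mature strand are cut, and bases 2 to 8 of the mature strand, the seed, pair with target messages. In vascular smooth muscle, the Mir143 and Mir145 pair is known for its part in keeping the contractile state. H3K4me3 marks promoters and H3K36me3 marks the bodies of transcribed genes.

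The mature microRNAs below belong to listed intervals where an RNA row was at least 2-fold different between the conditions. They are written as in RefSeq (GRCr8 tables), in lower case with the seed in capitals. Of 141 microRNA symbols in the set, 129 had at least 1 mature sequence. The first group lies in 2 intervals built alike, with Mir100, Mirlet7a-2 and Mir125b1 beside Vof16 on chromosome 8, and Mir99a, Mirlet7c1 and Mir125b2 beside NR_015543 on chromosome 11.
rno-miR-100-5p: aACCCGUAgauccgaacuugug
rno-let-7a-5p: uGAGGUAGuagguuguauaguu
rno-miR-125b-1-3p: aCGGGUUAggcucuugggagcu
rno-let-7c-5p: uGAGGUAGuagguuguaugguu
rno-miR-125b-5p: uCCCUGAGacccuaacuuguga
The let-7a and let-7c strands shared the seed GAGGUAG, which 4 mature names of the set carried, the highest number for any of its 196 seeds.

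The second group lies in intervals with a single small RNA row past 2-fold, and the 29b and 29c strands shared the seed AGCACCA.
rno-miR-143-3p: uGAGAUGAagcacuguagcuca
rno-miR-145-5p: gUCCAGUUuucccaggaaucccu
rno-miR-29b-3p: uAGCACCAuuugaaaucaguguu
rno-miR-29c-3p: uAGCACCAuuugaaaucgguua
rno-miR-7a-5p: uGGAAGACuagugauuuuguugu
rno-miR-3120: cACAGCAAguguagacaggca

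Promoter windows, 250 bases before to 50 after the annotated start, were present for 12 symbols of the set other than microRNAs. The 2 shown are those of Vof16, the long non-coding RNA with the highest log2 ratio, and of Gas5, a host of small nucleolar RNAs. Capitals in the Vof16 window mark 2 stretches of 22 bases whose letters equal, with T for U, the mature strands of miR-125b-5p and miR-125b-1-3p, which begin 82 and 42 bases before the start. No other of the 33469 promoter windows held either stretch. The capitals in the Gas5 window mark the cAMP response element TGACGTCA.
Vof16: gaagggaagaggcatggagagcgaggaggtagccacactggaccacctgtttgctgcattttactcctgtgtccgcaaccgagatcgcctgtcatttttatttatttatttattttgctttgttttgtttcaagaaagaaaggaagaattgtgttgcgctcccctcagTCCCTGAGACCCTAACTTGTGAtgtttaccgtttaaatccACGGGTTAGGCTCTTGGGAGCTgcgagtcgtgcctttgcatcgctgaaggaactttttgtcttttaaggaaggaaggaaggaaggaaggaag
Gas5: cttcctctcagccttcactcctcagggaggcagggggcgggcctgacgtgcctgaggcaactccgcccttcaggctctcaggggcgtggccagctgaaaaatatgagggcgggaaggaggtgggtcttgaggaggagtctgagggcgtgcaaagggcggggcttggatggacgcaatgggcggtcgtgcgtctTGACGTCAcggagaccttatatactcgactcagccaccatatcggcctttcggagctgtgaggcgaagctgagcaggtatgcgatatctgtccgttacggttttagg

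On either strand, TGACGTCA was in 1.83% of all 33469 windows of this length and in 1 of the 12. The AP-1 letters TGANTCA were in 7.33% of all windows and in 0 of the 12, the TATA box letters TATAAA in 14.2% and in 2 of the 12 (C7h12orf54 and CB741658), and the CArG box in 1.64% and in 1 of the 12 (CB741658, where it overlapped the TATAAA match). A match in these letters is a description of the sequence only.

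Markers of the labelled cell type were present. Of 6 smooth muscle markers 5 had a locus, between 6.62 and 5103 FPKM in control and between 11.8 and 5244 FPKM with AngII (FPKM, a fragment number scaled to transcript length and library size). Acta2 had no matched locus. The 3 endothelial markers with a locus did not exceed 0.367 FPKM, the 4 leukocyte markers did not exceed 6.77 FPKM, and 4 fibroblast markers reached 140 FPKM in control and 111 FPKM with AngII. Sequencing depth is unknown from these files, and the error given for each level is the confidence bounds that the authors deposited, which hold no replicate variation.

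Most of the loci did not stand alone in the table. Only 254 of 663 had coordinates of their own. The other 409 shared their listed interval with at least 1 more row, 374 of them with a row that carries a messenger RNA accession, because 1 listed interval can take in several genes. Loci at shared intervals spanned a median of 127844 bp and those with their own coordinates 1948 bp, against 14241 bp for loci with an NM accession and their own coordinates. For 160 loci the same accession was listed at more than 1 place, up to 5. Such loci can share reads between copies, and the table gives no strand, so their levels are uncertain.

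The 300 bp bound of the rule fell among RNAs of this kind. Just inside it lay NR_026792 (317 bp), NR_033409 (341 bp) and Terc (388 bp). Just outside lay NR_026944 (295 bp), the row of NR_001460 and NR_003051 (275 bp) and the row of NR_003023 and NR_028538 (271 bp), which had 0.165, 28926 and 98.4 FPKM in control and 0.164, 25790 and 86.6 FPKM with AngII. The second of these was more abundant than any locus inside the bound.

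Loci with non-coding accessions were expressed less often than loci with an NM accession. An RNA level of at least 1 FPKM in at least 1 condition, the rule for expressed, was met by 170 of 663 loci (25.6%), against 57.8% of loci with an NM accession and 53.9% of all. With coordinates of their own 99 of 254 were expressed (39.0%), and at shared intervals 71 of 409 (17.4%). A level of 0 was listed in both conditions for 255 loci, in control alone for 25 and after AngII alone for 48. Small RNA rows, 141 of the 663, were 125 of those 255 and only 8 of the 170 expressed, so they lowered the expressed share. Among the expressed, the median was 3.04 FPKM in control and 2.37 FPKM with AngII, against 10.7 and 9.53 FPKM for expressed loci with an NM accession.

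A few loci held most of the signal. Rpph1, the RNA subunit of ribonuclease P, which trims transfer RNA precursors, had an RNA level of 15760 FPKM in control (bounds 7190 to 24331) and 13213 FPKM with AngII (6145 to 20282). It made up 67.3% and 66.4% of the FPKM summed over all 663 loci, and its bounds overlapped widely. That share rests on the span bound: with the 3 rows just outside it added to the sum, Rpph1 made up 30.1% and 28.9%. Its interval on chromosome 15 (26609176 to 27052241) is shared by 16 rows. The next were unnamed and short. The row of NR_003680 and NR_004844 on chromosome 18 (61825558 to 61826259) measured 812 and 654 FPKM, NR_026898 on chromosome 18 (15639020 to 15639675) at 780 and 621 FPKM, and NR_038063 on chromosome 15 (74072035 to 74072475) at 720 and 621 FPKM. The accession NR_004844, listed alone on chromosome 17 (29960622 to 29961238), measured 548 and 431 FPKM. All 5 lay lower after AngII with overlapping bounds, by log2 ratios of -0.21 to -0.34; after centring on the median expressed locus, as defined below, Rpph1 (0.03) and NR_038063 (0.07) lay above 0.

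Response to AngII was measured as the log2 ratio of (AngII FPKM + 1) to (control FPKM + 1), which understates the change of low loci. Over the 170 expressed loci its median was -0.27 (interquartile range -0.48 to 0.10), beside -0.24 over all 16654 expressed loci and -0.22 over those with an NM accession. Below 0 lay 120 of 170 (70.6%), against a background of 68.6% of all expressed loci. The whole table was thus shifted downward, and when AngII values were scaled by 1.21 so that the median expressed locus is at 0, the median of the set was -0.01. The source of that shift was not tested. For a given locus in these bulk samples, fewer cells of a type and less RNA per cell cannot be told apart. The lean below 0 was close to that of the whole table.

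**Figure D1:**
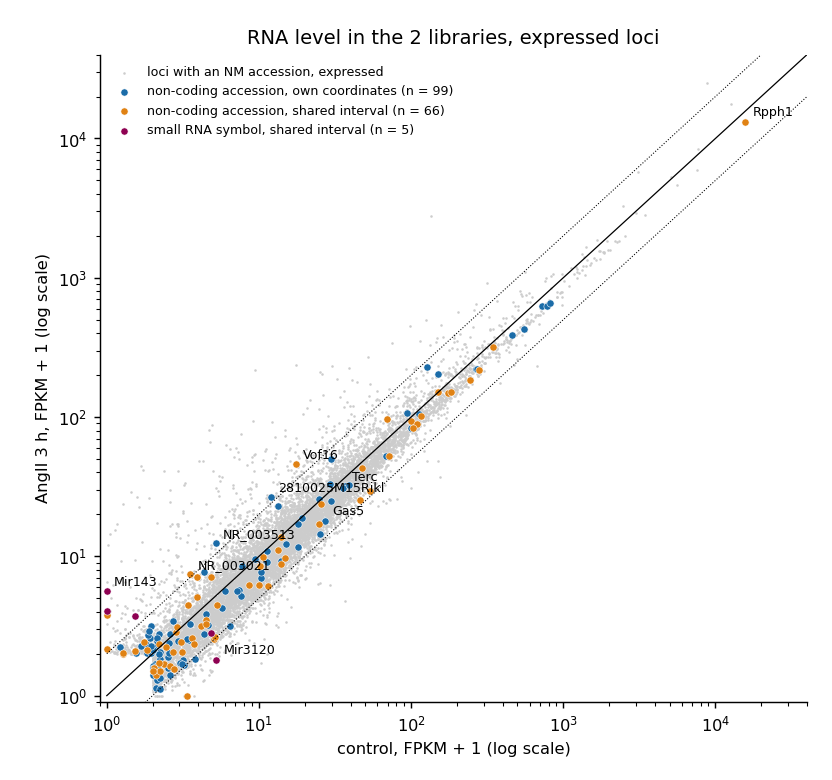
Each point is 1 expressed locus, with control FPKM + 1 on the x axis and AngII FPKM + 1 on the y axis, both on log scales; grey points are loci with an NM accession, and blue, orange and purple points are the 170 expressed loci with non-coding accessions, split by whether their coordinates are shared. The solid line is equality and the dotted lines are 2-fold, and 9 coloured points lie on or above the upper line and 5 on or below the lower one.

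At least 2-fold higher after AngII were 9 of the 170 loci (5.29%; background 4.64%), and at least 2-fold lower were 5 (2.94%; background 5.54%). The higher share was close to the background, and the lower share lay under it. Of expressed loci with an NM accession, 3.40% were higher and 3.01% lower, so the lower share was close to theirs. Of the 9 higher loci 4 were listed at 0 in control, and of the 5 lower loci 1 was listed at 0 after AngII. Past 2-fold with non-overlapping bounds were 3 higher loci, Vof16, NR_003513 and Mir143 (1.76% of the 170; background 3.04% of all expressed loci), and 0 lower loci (background 3.07%). Mir143 is among them against a control listed at 0, whose bounds have no width. At any fold, bounds were apart for 3 higher loci (background 3.61%) and 1 lower locus (background 4.77%). Centring gave 15 higher and 2 lower, so that the higher share of the calls went from 64.3% to 88.2%, as it went from 45.5% to 66.1% over all expressed loci. Among the 99 expressed loci with coordinates of their own, 2 were higher and 2 lower, against backgrounds of 4.61% and 5.45%. The remaining 7 higher and 3 lower loci sat at intervals listed for several rows.

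Vof16, a long non-coding RNA, had the highest log2 ratio, on the FPKM + 1 scale, among loci that were above 0 in both conditions. It had an RNA level of 16.4 FPKM in control (bounds 9.31 to 23.5) and 45.0 FPKM with AngII (26.3 to 63.6). The AngII level was 2.74 times the control level, the bounds did not overlap, and the log2 ratio was 1.40 as deposited and 1.67 after centring. Its interval on chromosome 8 (44321673 to 44691383) holds 7 rows, none with an NM accession, and the nearest named neighbours are Ubash3b at 186 kb and Sorl1 at 267 kb. In the same interval NR_033215 had an RNA level of 149 FPKM in control (86.1 to 211) and 151 FPKM with AngII (87.1 to 214), with a log2 ratio of 0.02. NR_040725 measured 0.947 and 0.655 FPKM. Mir100, Mirlet7a-2, Mir125b1 and Mir3596a were listed at 0 in both. Rows of 1 interval thus did not share 1 ratio: the more abundant row was level between the libraries and Vof16 was higher. NR_033215 is listed at 4 places, so its level, and the comparison with it, is uncertain. H3K4me3 lay at the interval in both conditions, and H3K36me3 covered 76.8% of it in control and 75.03% after AngII.

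**Figure D2:**
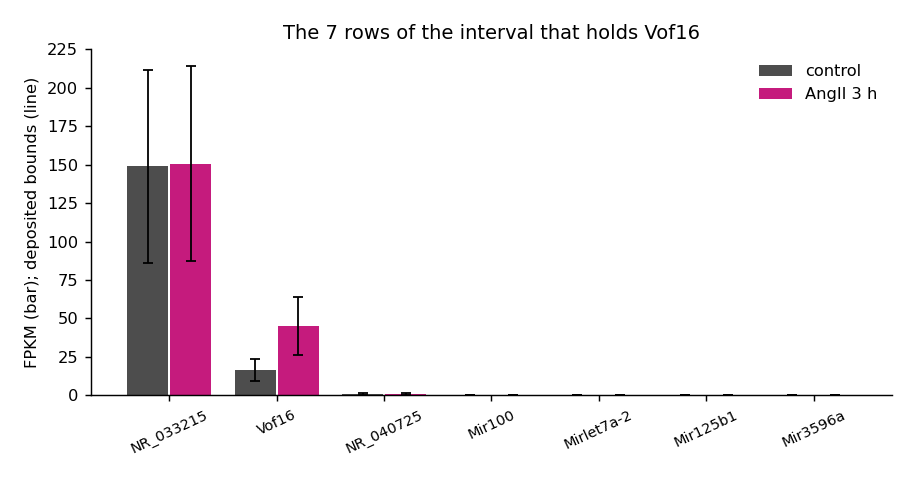
Bars give the FPKM of the 7 rows listed at the interval of Vof16 in control (grey) and after AngII (pink), and lines give the deposited bounds. NR_033215 is at 149 and 151 FPKM with overlapping bounds, Vof16 goes from 16.4 to 45.0 FPKM with bounds apart, and the 4 microRNA rows are listed at 0.

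The interval of like build on chromosome 11 (16004815 to 16464224) had a lower estimate after AngII in its most abundant row. Its 6 rows are Mir99a, Mirlet7c1, Mir125b2 and Mir3588, all listed at 0 in both conditions, an NM row at 0.748 and 0.161 FPKM, and the row of NR_015543, NR_027790 and NR_027791. That last row had an RNA level of 4.10 FPKM in control (2.10 to 6.09) and 1.54 FPKM with AngII (0.665 to 2.42), a log2 ratio of -1.004, and its bounds overlapped. H3K36me3 covered 80.4% of the interval in control and 69.0% after AngII. A second piece of NR_015543 on chromosome 11 (16465391 to 16466046) measured 0.805 and 0.160 FPKM.

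A pair of loci without a matched rat symbol, on chromosome 1 between Ltbp3 and Frmd8, had higher estimates after AngII. NR_003513 (208476552 to 208479839), 9.50 kb from Frmd8, had an RNA level of 4.18 FPKM in control (2.13 to 6.23) and 11.5 FPKM with AngII (6.43 to 16.5). Its bounds were apart, with a log2 ratio of 1.27 as deposited and 1.52 after centring. The row of NR_002819 and NR_002847 (208424537 to 208430157), 25.3 kb from Ltbp3, was far more abundant, at 149 FPKM in control (83.5 to 214) and 204 FPKM with AngII (112 to 295). Its log2 ratio was 0.45 and its bounds overlapped. H3K4me3 lay at both loci in both conditions, and H3K36me3 covered at least 99.4% of each.

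The long non-coding RNA 2810025M15Rikl, on chromosome 13 (72673243 to 72679870), had an RNA level of 10.9 FPKM in control (5.47 to 16.4) and 25.6 FPKM with AngII (14.02 to 37.1). The level after AngII was 2.34 times that of control with overlapping bounds, and the log2 ratio was 1.15. Both marks were present in both conditions. The row had coordinates of its own but lay 303 bp from a locus with an NM accession and no matched symbol. Whether the marks belong to that neighbour was not tested. NR_003021 on chromosome 11 (70370980 to 70387036), in an interval shared with an NM row, measured 2.54 and 6.46 FPKM, a log2 ratio of 1.08 with overlapping bounds.

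Small RNA rows past 2-fold rested on low estimates. Mir143 was listed at 0 in control and at 4.64 FPKM with AngII (0.0947 to 9.18), and Mir145 in the same interval on chromosome 18 (57277757 to 57685098) was listed at 0 in both. The interval holds 7 rows in all, among them the kinase gene Csnk1a1 at 180 and 201 FPKM, and H3K36me3 covered 22.2% of it in control and 34.1% with AngII. Mir7-1 was listed at 0 and 3.08 FPKM (0 to 8.41), in an interval with Hnrnpk, the gene of an RNA-binding protein, which measured 93.97 FPKM in control and 164 FPKM with AngII. The row of Mir29b2 and Mir29c had an RNA level of 0.522 FPKM in control (0.212 to 0.832) and 2.73 FPKM with AngII (0 to 9.13), a plain ratio of 5.23 that exceeds the 2.74 of Vof16. The lower bound after AngII was 0 for Mir7-1 and for the Mir29b2 and Mir29c row. Unnamed NR_037279 and NR_037289 had levels of 2.79 and 1.17 FPKM with AngII, also with lower bounds of 0, and control listed both at 0.

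Of the 5 lower loci, the row of NR_002953 and NR_003710 was listed at 2.38 FPKM in control (0 to 7.13) and at 0 after AngII. Mir3120 had an RNA level of 4.23 FPKM in control (0.447 to 8.02) and 0.814 FPKM with AngII (0 to 2.44), in an interval with Dnm3, Mir199a2 and Mir214, of which both microRNA rows were listed at 0. NR_040660 on chromosome 7 (67022226 to 67022775), 0.184 kb from Tspan31, measured 2.79 and 0.835 FPKM with a log2 ratio of -1.05. NR_015510 on chromosome 1 (149582716 to 149583379), 0.242 kb from Rab30, measured 5.43 and 2.18 FPKM with a log2 ratio of -1.02. Bounds of these 4 rows overlapped. After centring, NR_040660 (-0.91), NR_015510 (-0.82) and the NR_015543 row (-0.83) were no longer past 2-fold.

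Just short of 2-fold lay NR_030699, the row of NR_024283 and NR_033355, and NR_029474, at log2 ratios of -0.998, -0.949 and -0.947. The 1 locus lower with bounds apart was the row of NR_015501, NR_028313 and NR_028314 on chromosome 2 (21728153 to 22035224). It had an RNA level of 1.78 FPKM in control (0.959 to 2.60) and 0.542 FPKM with AngII (0.215 to 0.869), a log2 ratio of -0.85 in an interval shared with 3 NM rows.

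**Figure D3:**
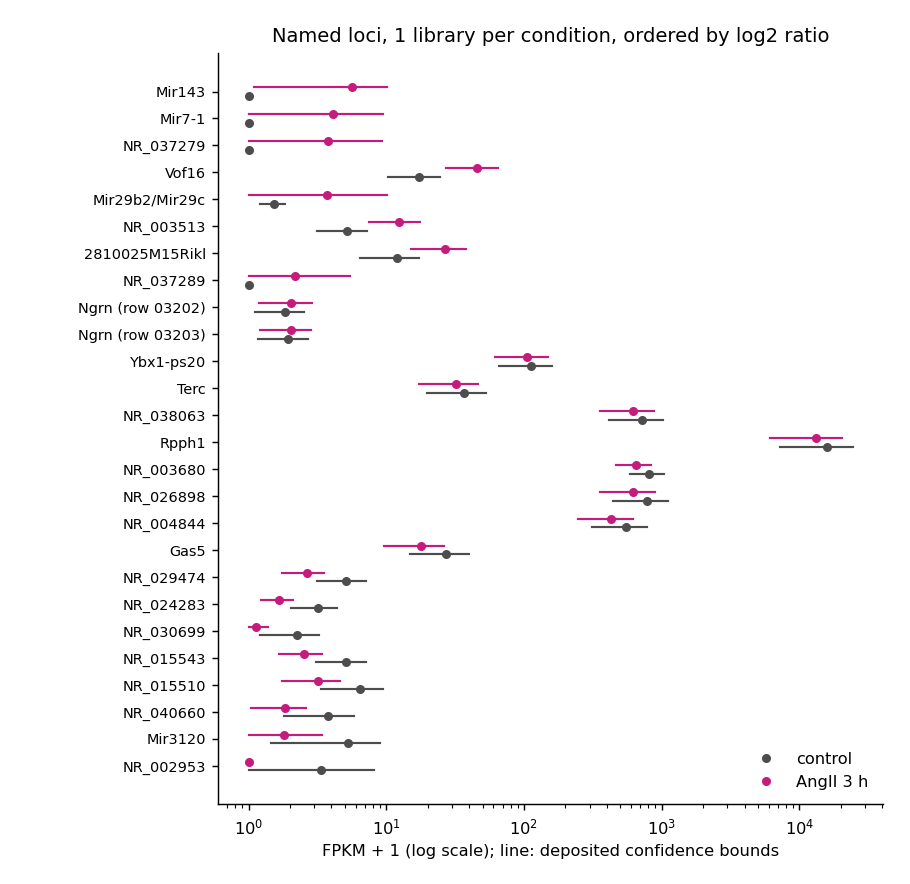
Points give FPKM + 1 on a log axis for the named loci in control (grey) and after AngII (pink), lines give the deposited bounds, and loci are ordered by log2 ratio. Bounds are apart for Mir143, Vof16 and NR_003513 and overlap for the others, where the Mir143 control is 0 with bounds of no width, from the 5 most abundant loci to the lower ones.

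Hosts of small nucleolar RNAs were represented by 1 of 21 listed genes, Gas5, whose introns hold such RNAs and whose transcript is known to accumulate in growth arrest. Gas5 on chromosome 13 (76594780 to 76598102) lies 0.362 kb from Zbtb37. It had an RNA level of 26.3 FPKM in control (13.9 to 38.7) and 16.97 FPKM with AngII (8.55 to 25.4). Its log2 ratio was -0.60 as deposited and -0.34 after centring, with overlapping bounds, and both marks covered or flanked it in both conditions. Among 13 RNA enzymes and structural RNAs, 2 matched, Rpph1 and Terc. Terc, the telomerase RNA, on chromosome 2 (117234445 to 117234833), measured 35.6 FPKM (18.9 to 52.3) and 30.9 FPKM (16.2 to 45.7). Its log2 ratio was -0.20 as deposited and 0.07 after centring, and it had H3K4me3 but no H3K36me3 in either condition. The imprinted growth regulator H19, 1 of 8 imprinted genes listed, measured 0.0157 and 0.0609 FPKM with neither mark. None of 7 genes of nuclear structure and X inactivation and none of 15 of vascular and growth control had a locus matched by rat symbol. These were therefore not analysed by name. Genes of any of these lists could lie among the loci without a symbol, so their absence is not shown.

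Of the remaining named rows, the pseudogene Ybx1-ps20 on chromosome 10 (40444159 to 40445678) measured 111 FPKM (64.7 to 158) and 104 FPKM (60.5 to 148). Its log2 ratio was -0.10 as deposited and 0.18 after centring, and it was under H3K36me3 over 0% of its length in control and 100% after AngII. A processed copy can share reads with its parent gene, so its level is uncertain. Expressed pieces of Ngrn, 2 of 3, measured 0.827 and 0.945 FPKM in control and 1.03 and 1.02 FPKM with AngII. The other 13 long non-coding RNA rows and 6 pseudogene rows were below 1 FPKM in both conditions.

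Some unnamed accessions are listed in several pieces. NR_015456 has 3 pieces on chromosome 1 between 111553402 and 111560047, within 15.9 kb of Snrpn and Snurf, an imprinted pair. They measured 0.997, 1.61 and 2.17 FPKM in control and 0.106, 0.402 and 0.797 FPKM with AngII, with log2 ratios of -0.85, -0.90 and -0.82. Bounds were apart for the first (0.333 to 1.66 and 0 to 0.228), which lay just under the level counted as expressed, and overlapped for the other two. H3K36me3 covered 100% of each in control, and 0%, 14.4% and 100% after AngII. NR_002863 has 3 pieces near Emx2 on chromosome 1, with log2 ratios of -0.36, -0.33 and -0.37. Neighbouring pieces of other accessions differed more: the 4 pieces of NR_030699 on chromosome 4 had log2 ratios of 0.23, -0.46, -0.998 and -0.16, and a pair of NR_038044 on chromosome 16 had 0.29 and -0.37. NR_033868 is listed on chromosome 5 (60918938 to 60920612) and chromosome 14 (98258722 to 98260267). The first measured 126 FPKM (73.5 to 179) and 228 FPKM (130 to 326), and the second measured 28.8 FPKM (16.5 to 41.1) and 48.8 FPKM (28.4 to 69.2), with log2 ratios of 0.85 and 0.74 and overlapping bounds. Pieces of 1 accession are not independent measurements, and copies may share reads.

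Abundant loci differed by less than 2-fold between the libraries. At a mean of at least 50 FPKM there were 28 loci, of which 0 had bounds apart, and their log2 ratios ran from -0.45 to 0.85. Of the 28, 23 lay below 0 as deposited and 10 after centring. The relative SD implied by the bounds had a median of 21.4% in control and 21.3% after AngII at 10 FPKM or more, and 31.9% and 33.0% between 1 and 10 FPKM.

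The 141 small RNA rows, 140 of microRNA genes and 1 of LOC252890, mostly had no RNA estimate above 0. Whether their primary transcripts were present was not tested. The intervals that hold these rows were mostly marked. In both conditions 125 were listed at 0, and 8 were expressed, none above 4.64 FPKM. The labels name no small RNA library, so mature microRNAs were not analysed here. The rows lay at 105 intervals, 124 of them in an interval with an NM row. H3K4me3 was found in both conditions at 121 and H3K36me3 at 115, but marks at a shared interval cannot be assigned to 1 of its rows. Where exactly 1 expressed row shared the interval, for 68 small RNA rows with 50 distinct partners, the partner had a median log2 ratio of -0.16. Partners of 2 microRNA rows were at least 2-fold higher (2.94% of 68; background 4.64%). Pank1, a pantothenate kinase gene and the partner of Mir107, measured 2.94 FPKM in control and 11.5 FPKM with AngII. Grm8, a glutamate receptor gene and the partner of Mir592, had a log2 ratio of 1.55. Mir338 and Mir3065 share 1 partner, NM_001168703, with a log2 ratio of -1.11, which was the single partner at least 2-fold lower (2 rows, 2.94% of 68; background 5.54%). Mcm7, a replication helicase subunit and the partner of Mir25, Mir93 and Mir106b, had a log2 ratio of -0.87, and Srebf2, the sterol regulator and partner of Mir33, 0.63.

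H3K4me3 was counted where a region deposited by the authors lay within 1 kb of the locus, and H3K36me3 where a region touched it. Over all 663 loci H3K4me3 was found at 82.1% in control and 82.4% after AngII, and H3K36me3 at 82.1% in both. These shares were carried by the shared intervals, where H3K4me3 was at 94.4% and 93.6%. Over the 254 loci with their own coordinates H3K4me3 was at 62.2% in control (exact Clopper-Pearson 95% interval 55.9 to 68.2) and 64.2% after AngII (57.9 to 70.1), and H3K36me3 at 70.5% (64.5 to 76.0) and 67.7% (61.6 to 73.4). Intervals cover counting error only.

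Split at 1 FPKM, the marks differed less between expressed and other loci of this set than between those with an NM accession. Among loci with their own coordinates in control, H3K4me3 was at 60.6% of the 99 expressed (50.3 to 70.3) and 63.2% of the 155 not expressed (55.1 to 70.8). At loci with an NM accession the shares were 87.2% (86.5 to 87.9) and 37.3% (36.1 to 38.5). H3K36me3 was at 72.7% of the expressed (62.9 to 81.2) and 69.0% of the others (61.1 to 76.2), against 91.6% and 33.3%. Even of the 40 loci listed at 0 in both conditions 57.5% (40.9 to 73.0) had H3K4me3 and 52.5% (36.1 to 68.5) H3K36me3, against 19.2% and 8.44%. At this split, expressed loci with non-coding accessions were therefore marked less often than loci with an NM accession of the same class. Those not expressed were marked more often, and the intervals do not overlap in either class. In finer steps H3K36me3 in control was at 60.6% of the loci with a mean under 0.1 FPKM (0 included), 75.5% at 0.1 to 1 and 85.1% at 1 to 10 FPKM, and at 51.6% (33.1 to 69.8) at 10 FPKM or more. H3K4me3 lay between 57.4% and 60.6% in the steps under 10 FPKM and was 80.6% (62.5 to 92.5) at 10 FPKM or more. In the same steps, loci with an NM accession had H3K36me3 at 14.4%, 71.1%, 87.7% and 96.3%. For H3K36me3 the intervals overlapped at 0.1 to 1 and at 1 to 10 FPKM, so the difference lay at the ends of the range. For H3K4me3 the NM shares were 32.1%, 46.8%, 84.7% and 93.9%, with intervals apart in each step.

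Locus length moved with part of this difference. Expressed loci with non-coding accessions and their own coordinates spanned a median of 1305 bp and the not expressed 2874 bp, against 19860 and 7629 bp for loci with an NM accession. At 300 to 1000 bp, H3K4me3 was at 45.0% of the expressed, against 34.5% of loci with an NM accession, and from 5 to 20 kb at 84.2% against 94.04%; both pairs of intervals overlap. Among the not expressed H3K4me3 was at 45.2% against 8.1% at 300 to 1000 bp and at 68.8% against 26.0% from 1 to 5 kb. From 5 to 20 kb it was at 70.0% against 40.9%, and up to 20 kb the intervals stay apart. Over 20 kb it was at 63.3% (43.9 to 80.1) against 59.4%, where the intervals overlap. H3K36me3 of the not expressed had intervals apart at each span, and over 20 kb was at 70.0% (50.6 to 85.3) against 35.0%.

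**Figure D4:**
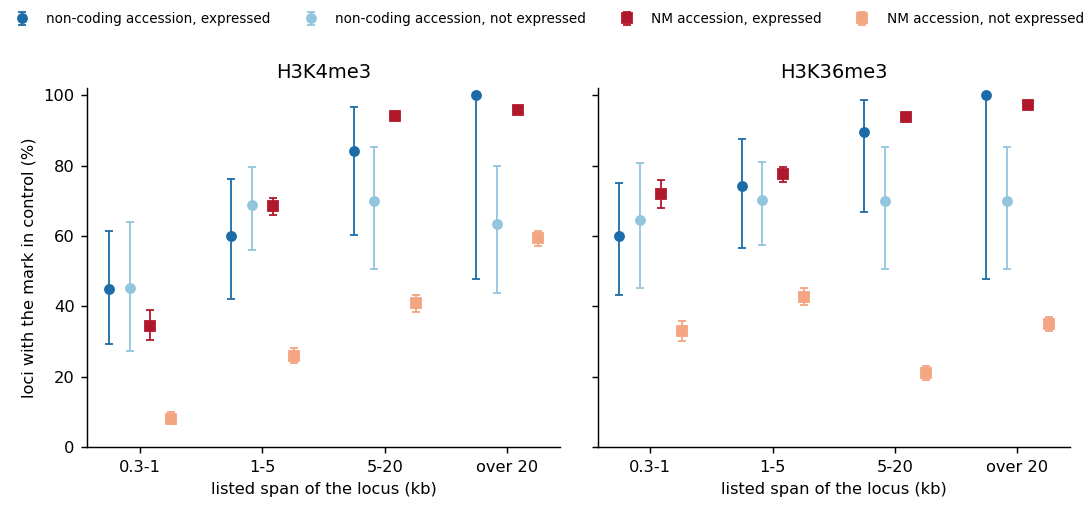
Points give the percent of loci with their own coordinates that had H3K4me3 (left) or H3K36me3 (right) in control, by listed span in kb, with exact 95% intervals; circles are loci with non-coding accessions and squares loci with an NM accession, dark when expressed and pale when not. Pale circles lie far above pale squares up to 20 kb, while dark circles and squares of one span lie closer together.

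Distance to a locus with an NM accession also moved with the marks. H3K4me3 in control was at 77.1% of the 70 loci within 1 kb of such a locus, 66.0% of the 53 at 1 to 5 kb, 54.3% of the 46 at 5 to 20 kb and 51.8% of the 85 further away. H3K36me3 was at 81.4%, 84.9%, 69.6% and 52.9%. Over 20 kb away H3K4me3 was at 51.2% of 41 expressed loci (35.1 to 67.1) and 52.3% of 44 not expressed (36.7 to 67.5). The likeness of the classes was not uniform over distance. Within 1 kb H3K4me3 was at 61.9% of 21 expressed and 83.7% of 49 not expressed. At 1 to 5 kb the shares were 76.5% and 61.1%, and at 5 to 20 kb 65.0% and 46.2%. Intervals of the classes overlapped at each distance. Whether a mark belongs to the neighbour was not tested.

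**Figure D5:**
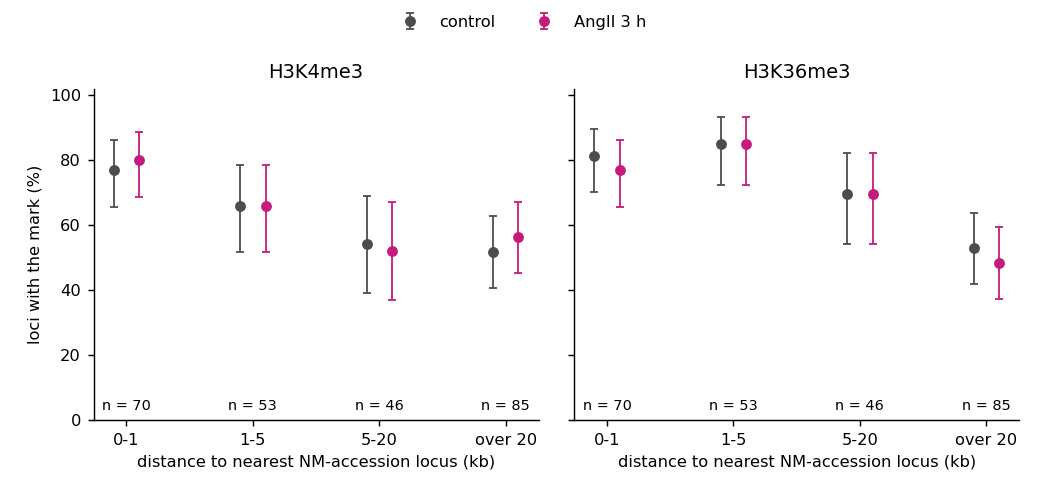
Points give the percent of the 254 loci with their own coordinates that had H3K4me3 (left) or H3K36me3 (right), by distance to the nearest locus with an NM accession in kb, in control (grey) and after AngII (pink), with exact 95% intervals. Both marks are less frequent over 20 kb away than within 1 kb, and the 2 conditions overlap at each distance.

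The most abundant loci often lacked H3K36me3. Of the 31 loci with their own coordinates and a mean of at least 10 FPKM, 24 had H3K4me3 in both conditions and 12 (38.7%) had no H3K36me3 in either, against 2.55% of 4399 loci with an NM accession at that level. Of the 14 under 1000 bp, 10 lacked H3K36me3, against a smaller share, 52 of 135, of loci with an NM accession of that length. Of the 17 longer loci of the set, 2 lacked it. An accession listed at several places was found at 15 of the 31 loci, among them 7 of the 12 without H3K36me3. Neither mark was found at 4 of the 31, and each of these 4 has such an accession. They were NR_036692 (92.7 and 106 FPKM), NR_026983 (67.0 and 51.2 FPKM), NR_028497 (28.3 and 32.3 FPKM) and NR_033600 (14.04 and 11.2 FPKM). Both marks in both conditions were found at 41 of the 99 expressed loci with their own coordinates (41.4%) and at 58 of the 155 not expressed (37.4%), against 80.8% and 12.7% for loci with an NM accession.

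A minority of the loci had a mark in 1 condition only, at shares partly above the background. Among the 254, H3K4me3 was found after AngII only at 10 (3.94%; background 1.87%) and in control only at 5 (1.97%; background 1.55%). H3K36me3 was found after AngII only at 15 (5.91%; background 6.53%) and in control only at 22 (8.66%; background 3.9%). Cover by H3K36me3 was higher by over 20 points of the locus at 26 (10.2%; background 9.26%) and lower by as much at 29 (11.4%; background 4.7%). Over loci with an NM accession and their own coordinates these 6 shares were, in the same order, 1.36%, 1.4%, 5.09%, 2.05%, 8.11% and 2.46%. Losses of H3K36me3, and H3K4me3 after AngII only, were thus counted at a larger share than over all loci. Gains of H3K36me3 were counted at about the same share. These shares were not matched for length, and medians were 1948 bp for the 254 and 14241 bp for loci with an NM accession. Whether length carries the differences was not tested. Of the 254, 2 were at least 2-fold higher, and neither had any of these 6 changes. Of the 2 at least 2-fold lower, NR_040660 had H3K36me3 over 1.82% of its length in control and 0% after AngII. Of the 10 loci with H3K4me3 after AngII only, 5 were expressed, among them NR_033868 on chromosome 5, NR_038063 and Mir449a (1.71 and 2.46 FPKM). The lists were made with bins of 153 to 589 bp that differ between libraries, and the part of this in such differences was not tested.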

How the data were processed

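RNA-seq and ChIP-seq of H3K4me3 and H3K36me3 were compared between control and AngII, grouped by sample title. The authors deposited RNA levels as FPKM with confidence bounds; TopHat, Cufflinks and Cuffdiff, and for ChIP-seq Bowtie and the assembly rn4, are named per the submitters' processing notes, without versions. Both RNA samples hold the same table, which covers both conditions. Each ChIP-seq list gives regions with scores that the authors deposited, used only to filter regions; no source used here names the caller. The lists held 28168 and 27801 H3K4me3 regions and 17425 and 16578 H3K36me3 regions in control and AngII. No sequencing depth is stated in these sources.

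Loci were chosen by accession, span and usable estimate. Expressed means FPKM of at least 1 in at least 1 condition, and the pseudocount was 1. Symbols and sequences came from RefSeq tables (GRCr8), matched by accession, with no coordinates taken from them. Python 3.11.15, numpy 2.4.6, pandas 2.3.3, scipy 1.17.1 and matplotlib 3.10.9 were used, and counting, overlap and interval steps were tested on simulated data. With 1 library per condition no test was made and no p-value is given.

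Named were expressed loci with a symbol other than small RNAs, the 8 with the largest increase, the 8 with the largest decrease, the 5 most abundant, matched genes of the gene lists, and the 3 rows on either side of the span bound. Unnamed expressed loci are given by counts and ranges; the pieces, abundant, interval and microRNA partner rows named beside them were chosen after their values were seen. The loci and lists were chosen with earlier results of these data known. Alternatives varied the pseudocount, scaling, FPKM minimum, fold rule, span, shared intervals, mark window, cover and region scores.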

Additional observations from a re-analysis of the deposited data

How the results depend on the processing

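The counts of loci past 2-fold depended on the setting. Higher loci, 9 as reported, were 14 with a pseudocount of 0.1, 1 with a pseudocount of 5, 15 when centred, 4 with an FPKM minimum of 5, 2 with their own coordinates, 5 without rows listed at 0, 19 at 1.5-fold and 3 with bounds apart. Lower loci, 5 as reported, were 25, 0, 2 and 1 under the first 4 of these, 3 scaled to the upper quartile, 2 with their own coordinates, 3 over 1000 bp, 34 at 1.5-fold and 0 with bounds apart. The median log2 ratio of -0.27 was -0.14 with a pseudocount of 5, -0.013 when centred, -0.20 scaled to the upper quartile and 0 without an FPKM minimum. Expressed loci, 170 as reported, were 368 at a minimum of 0.1, 74 at a minimum of 5 and 99 with their own coordinates. H3K4me3, at 82.1% in control and 82.4% after AngII, was at 76.9% and 76.9% without the lowest quartile of the second score, 62.2% and 64.2% with own coordinates, 59.5% and 61.4% over 5 kb from loci with an NM accession, and 86.3% and 87.2% with a window of 5 kb. H3K36me3, at 82.1% in both, was at 77.2% and 76.8% without the lowest score quartile, 78.9% and 78.1% without that of the second score, 70.5% and 67.7% with own coordinates, 64.7% and 62.1% over 5 kb away, and 59.4% and 62.9% at 50% cover. The cause was not tested beyond the fewer loci counted. Of 70 such values 42 moved by more than their counting interval or, for counts, by over 1.5 times, and 28 did not. Of the named loci, Ybx1-ps20, NR_038063, Rpph1 and Terc changed sign, on centring. Leaving out rows listed at 0, filtering on the second score and distance from loci with an NM accession were chosen after seeing the data. No paired analysis was possible because a condition had 1 library per assay, which also means that leaving out a library was not possible. Depth and strand are not given, which limits low and overlapping loci.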
